A study of Mus musculus with 16 samples.

Results

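Dazl coverage on RNA in mouse cells fell into 8338 short regions, and 6798 of them were exactly 17 nt long. Of these, 1743 lay in tight clusters, meaning that another region of any length started or ended within 50 nt on the same chromosome. The clustered regions were 25.6% of all 17-nt regions and 20.9% of all regions. They were set against 1884 isolated 17-nt regions, which had no other region within 1000 nt; the other 3171 regions of 17 nt lay between these limits. Membership rests on position and length, not on the values.

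The libraries were made by KIN-CLIP, an iCLIP method in which femtosecond pulses of an ultraviolet laser fix a protein on the RNA it touches during a chosen exposure. All came from a monoclonal line, so 1 clone, of GC-1 spg cells, a mouse line derived from spermatogonia, in which doxycycline induces Dazl. The design crosses 2.6 and 1 mW of laser power, 4.2x and 1x Dazl, and times of 30, 180 and 680 s, with 1 library per condition and no replicate. The 4 samples of 0 s were not analysed here, which leaves the values without a background free of crosslinking. The value of a region is the authors' normalized coverage summed over its positions, a score in whole numbers whose depth in reads is unknown. Library sums over all regions ran from 11271 at 180 s, 1 mW and 1x Dazl to 252932 at 680 s, 2.6 mW and 4.2x Dazl. From 30 to 180 s the sum fell from 14910 to 11271 at 1 mW and 1x Dazl. It fell from 74552 to 48334 at 1 mW and 4.2x, and from 92228 to 86071 at 2.6 mW and 1x. Only at 2.6 mW and 4.2x did it rise, from 173943 to 185659. Clustered regions held between 18.2% and 19.8% of each library's sum. Every region, clustered or not, was listed in all 12 libraries, and all 1743 clustered regions entered each test of regions. Of 20 germ cell genes and 14 marker genes of other testis cells, 0 had a clustered region, and 3 genes of each list had a region at all.

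Dazl is an RNA-binding protein of germ cells, known to bind short GUU-containing sites, mostly in 3′ untranslated regions, and to act on translation and stability. Ultraviolet light joins protein and RNA only where they touch at that moment. Coverage that grows with exposure time can therefore follow how often and how long the protein sits on a site. Here the library sums did not grow at every step of time. Several sites close together on an mRNA let several molecules of such a protein bind side by side.

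The sequence of a region could be read for 113 of the 17-nt regions, 16 of them clustered, which lie whole in RefSeq promoter windows of GRCm38.p6 (the assembly called mm10). A window runs from 250 bases before to 50 bases after a gene's start. Because the files give no strand, all regions were read 5′ to 3′ on the plus strand of the genome. Both members of clusters at the starts of Cpsf4, Spag17 and Atp6v0e are shown, then 2 more members, to show where the letters GTT fall. Each GTT is in capitals, and it is GUU only in an RNA read from the plus strand. Of the 16 readable members, 8 held GTT on that strand. The clusters in the gene a and at Timm8a1, whose members held no GTT on the plus strand, are not shown. Timm8a1 lies on the minus strand, and its member that overlaps the gene holds AAC off centre, which is GUU in its RNA. Both regions at Spag17 lie in no gene.
Cpsf4, before the gene's start, chr5:145167162-145167178, plus strand: gagctccGTTggctgag
Cpsf4, inside the gene, chr5:145167216-145167232, plus strand: ctcccggcatccctcgc
Spag17, lower coordinate, chr3:99885334-99885350, plus strand: aacggggaagcgGTTga
Spag17, higher coordinate, chr3:99885362-99885378, plus strand: ggaaccgGTTtgggggg
Atp6v0e, before the gene's start, chr17:26676338-26676354, plus strand: ggggcggagtccgacgg
Atp6v0e, inside the gene, chr17:26676405-26676421, plus strand: agcctctGTTgacactt
Orai3, chr7:127769817-127769833, plus strand: aGTTcctGTTtcggccc
Patz1, which overlaps another gene, chr11:3308828-3308844, plus strand: aaactttGTTtaggtgt

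GTT sat at the exact centre, positions 8 to 10 counted from the lower coordinate, in 7 of the 16 clustered and 32 of the 59 isolated regions. Over all 113 readable 17-nt regions it was there in 53 (46.9%), against 1.21% of all 17-nt stretches of the promoter windows. Only 3 of the 113 held GTT solely at another position. The same motif on the other strand, read as AAC on the plus strand, was at the centre of 0 of the 113 regions, against 1.20% of the stretches. On either strand and at any position, 11 of 16 clustered and 34 of 59 isolated regions held the motif, against 31.0% of the stretches. Whether clustered and isolated regions differ in these shares was not tested, since so few members lie in the windows. Of the 4 readable isolated regions with the highest mean values, 3 held a central GTT on the plus strand, and 2 of these are shown for comparison. Dad1 lies on the minus strand, so the GTT marked there is AAC in its RNA.
Wdr53, in no gene, chr16:32247168-32247184, plus strand: agtgactGTTcggcaga
Dad1, chr14:54253895-54253911, plus strand: cgtgcgcGTTagcgggc

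Neighbours at Cpsf4, Spag17 and Atp6v0e had similar values at 680 s, 2.6 mW and 4.2x Dazl whether or not they held a central GTT. Cpsf4, a subunit of the complex that cleaves mRNA 3′ ends, had 4, 19 and 36 at 30, 180 and 680 s (2.6 mW, 4.2x) in the region with GTT, and 5, 13 and 39 in the region without it. At Spag17, a protein of the sperm tail axoneme, the region with the central GTT had 19 at 680 s and its neighbour, where GTT is off centre, had 18. Atp6v0e, a subunit of the proton pump of acidic organelles, had 44 at 680 s in the region with GTT and 39 in the region without. At 30 s the order was the other way round, with 22 and 39. At 680 s, 2.6 mW and 1x Dazl the neighbours were further apart. The regions with a central GTT had 27 at Cpsf4, 12 at Spag17 and 42 at Atp6v0e, and their neighbours 35, 17 and 31.

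The 1743 members lay in 928 clusters, most of them pairs. Clusters of 2 regions held 1112 members in 661 clusters, clusters of 3 held 371 in 178, and clusters of 4 held 151 in 60. Clusters of 5, 6 and 7 regions numbered 22, 6 and 1, with 75, 29 and 5 members. A cluster spanned a median of 77 nt (45 to 344 nt). In 526 clusters all regions were 17 nt long; the others also held a region of another length, and 611 such regions lay in clusters. These neighbours had a median length of 32 nt, and their median value per position was 1.67 at 680 s, 2.6 mW and 4.2x Dazl, against 1.53 in members of clusters of 17-nt regions only and 1.41 in members beside a wider region. The median value at 680 s, 2.6 mW and 4.2x Dazl was 26, 25, 26, 23, 20 and 19 in clusters of 2, 3, 4, 5, 6 and 7 regions. At 30 s, 2.6 mW and 1x Dazl it was 7, 7, 10, 10, 9 and 6 in the same order. These differences by cluster size were not tested.

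The largest cluster lay in Rcn2, a calcium-binding protein of the endoplasmic reticulum, where 7 regions, 5 of them of 17 nt, spanned 331 nt (chr9:56058414-56058744). Its 17-nt regions stood between 16 and 19 at 680 s, 2.6 mW and 4.2x Dazl, in order of coordinate 19, 19, 18, 16 and 19. At 30 s under the same light and protein they were 1, 14, 18, 5 and 19. The 680 s values were thus nearly level along the cluster while the 30 s values ran from 1 to 19. Clusters of 6 regions lay in Stag1 (a cohesin subunit), Sf1 (the splicing factor that binds the branch point), Usp14 (a deubiquitinase of the proteasome), Celf1 (an RNA-binding protein of GU-rich elements), Rab11fip4 (an effector of Rab11 in vesicle traffic) and Notch2 (a signalling receptor). The last of the 8 clusters with the most regions lay in D030056L22Rik, the one with the highest mean value among the 22 clusters of 5.

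The Celf1 cluster, chosen after its values were seen, is given in full. All 6 of its regions were 17 nt long, as in Usp14 and Notch2. It spanned 200 nt (chr2:91019211-91019410), and its regions lay between 87 and 270 nt from the end of the gene. At 680 s, 2.6 mW and 4.2x Dazl the 6 regions had 34, 35, 32, 32, 32 and 33 in order of coordinate. At 30 s in that series they had 10, 31, 32, 32, 32 and 33, so 5 were at or near their final value and 1 was not. With 1x Dazl at the same power the 680 s values were again close, at 32, 27, 28, 29, 25 and 28, but those of 30 s were 1, 28, 18, 3, 9 and 3. The region that was lowest at 30 s with 2.6 mW, at either Dazl level, had the highest value of the 6 at 1 mW, 4.2x Dazl and 30 s, with 17 against 2 to 10.

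**Figure D1:**
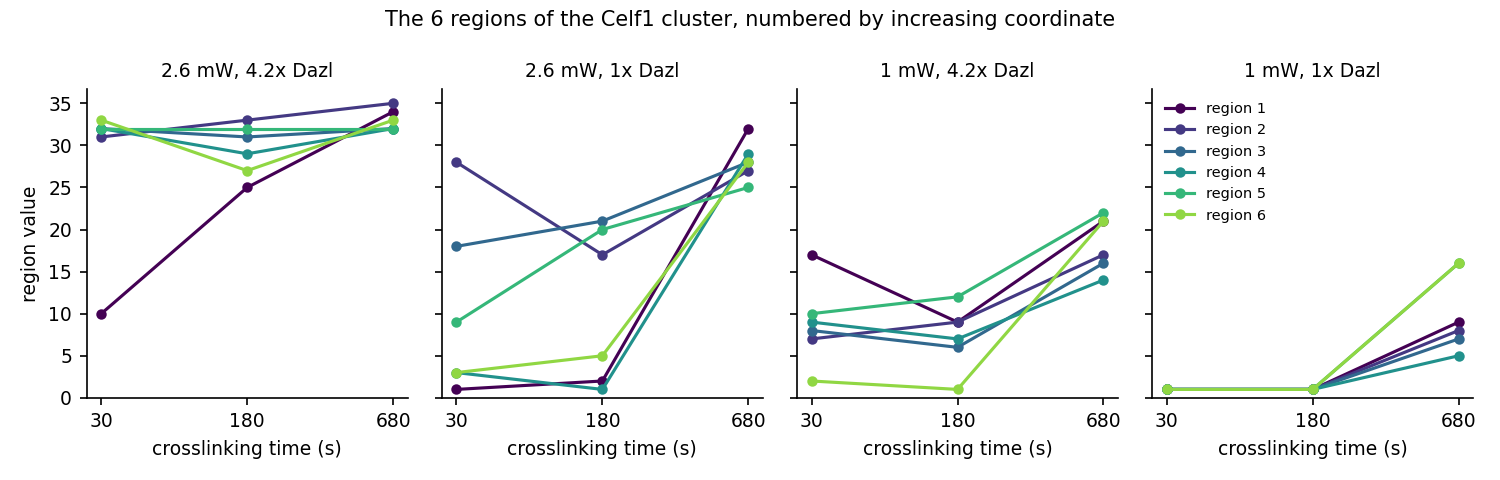
Region value (authors' normalized coverage, linear axis) of the 6 regions of the Celf1 cluster at 30, 180 and 680 s, 1 panel per combination of laser power and Dazl level, 1 library per point and no error bars. At 2.6 mW the lines come together at 680 s, between 32 and 35 with 4.2x Dazl. They lie apart at 30 s, between 1 and 28 with 1x Dazl. At 1 mW and 4.2x Dazl they lie between 2 and 17 at 30 s and between 14 and 22 at 680 s. At 1 mW and 1x Dazl all 6 stand at 1 at 30 s and lie between 5 and 16 at 680 s.

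Other large clusters were less even. In Notch2 the 6 regions (chr3:98150026-98150293) had 16, 16, 17, 18, 29 and 14 at 680 s, 2.6 mW and 4.2x Dazl, and 7, 16, 17, 6, 29 and 14 at 30 s. In Usp14 they had 36, 41, 18, 64, 40 and 19 at 680 s, and 36, 41, 18, 34, 40 and 19 at 30 s, so that 5 of the 6 were full at 30 s. In Stag1 the 3 regions of 17 nt had 17, 67 and 15 at 680 s, and exactly the same values at 30 s.

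Clustered regions lay in fewer genes, and nearer to gene ends, than isolated ones. The number of genes follows largely from the definitions. A member has another region within 50 nt, and an isolated region has none within 1000 nt. Genes of members thus held a median of 5 regions and those of isolated regions 1, counted per region. The 1658 members in a single gene fell in 696 genes, and 1638 of the regions lay in protein-coding genes and 20 in long noncoding RNAs. Isolated regions in a single gene numbered 1780, in 1635 genes. Of the genes with members, 160 held 1, 343 held 2, 89 held 3 and 57 held 5 or more. Clustered regions lay a median of 938.5 nt from the closer gene end and isolated ones 2828 nt, and 51.7% of clustered and 28.7% of isolated regions lay within 1000 nt of an end. Without exons or strand, the ends could not be told apart as 5′ or 3′, and introns count in these distances. A further 85 members lay in no single gene, 20 of them in no gene.

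Sdc4, a heparan sulfate proteoglycan of the cell surface, had the most members, 13 of its 22 regions in 6 clusters (gene at chr2:164424247-164443188). Their values at 680 s, 2.6 mW and 4.2x Dazl ran from 29 through a median of 45 to 93, and 8 of the 13 had the same value at 30 s. Golph3, which ties Golgi membranes to the cytoskeleton, had 11 members of 16 regions, from 21 to 41 with a median of 24. The nuclear noncoding RNAs Malat1 and Neat1 had 10 of 38 and 9 of 62 regions in clusters, a smaller share than in Sdc4 or Golph3. In Malat1 3 of 10 members were full at 30 s, against 5 of 9 in Neat1, and 10 of 10 and 5 of 9 passed the test for 680 against 30 s described below, which called 61.5% of all regions. Celf1 and Myadm, a membrane protein, had 9 members each of 14 and 11 regions. Timp2, an inhibitor of matrix metalloproteinases, had 8 members with 32 to 122, and Scd2, a fatty acid desaturase, had 8 with 34 to 118. Tfrc, the transferrin receptor, had 8 with a narrow range of 20 to 25. Serpinh1, the collagen chaperone of the endoplasmic reticulum, had 7 with 36 to 91.

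The comparison with isolated regions asks whether lying in a cluster goes with another level or course of crosslinking. At 680 s the levels did not separate: the median was 26 in clustered and 26 in isolated regions at 2.6 mW and 4.2x Dazl, 21 and 21 at 2.6 mW and 1x, 15 and 15 at 1 mW and 4.2x, and 8 and 7 at 1 mW and 1x. At the shorter times clustered regions were higher in the 3 stronger series. At 30 s their median was 19 against 13 at 2.6 mW and 4.2x Dazl, 8 against 4 at 2.6 mW and 1x, and 7 against 4 at 1 mW and 4.2x. At 180 s it was 19 against 17, 9 against 4, and 5 against 3 in the same order. The median over all regions, of any length, was 18, 7 and 6 at 30 s and 20, 7 and 4 at 180 s in these series. At 1 mW and 1x Dazl both medians were 1 at 30 and 180 s, the lowest value that is listed, so the medians could not differ. There 81.6% of clustered and 85.7% of isolated regions stood at 1 at 30 s, and 88.2% and 93.4% at 180 s. The spread within each class was wide: at 30 s, 2.6 mW and 4.2x Dazl the quartiles were 8 and 27 in clustered and 4 and 24 in isolated regions.

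**Figure D2:**
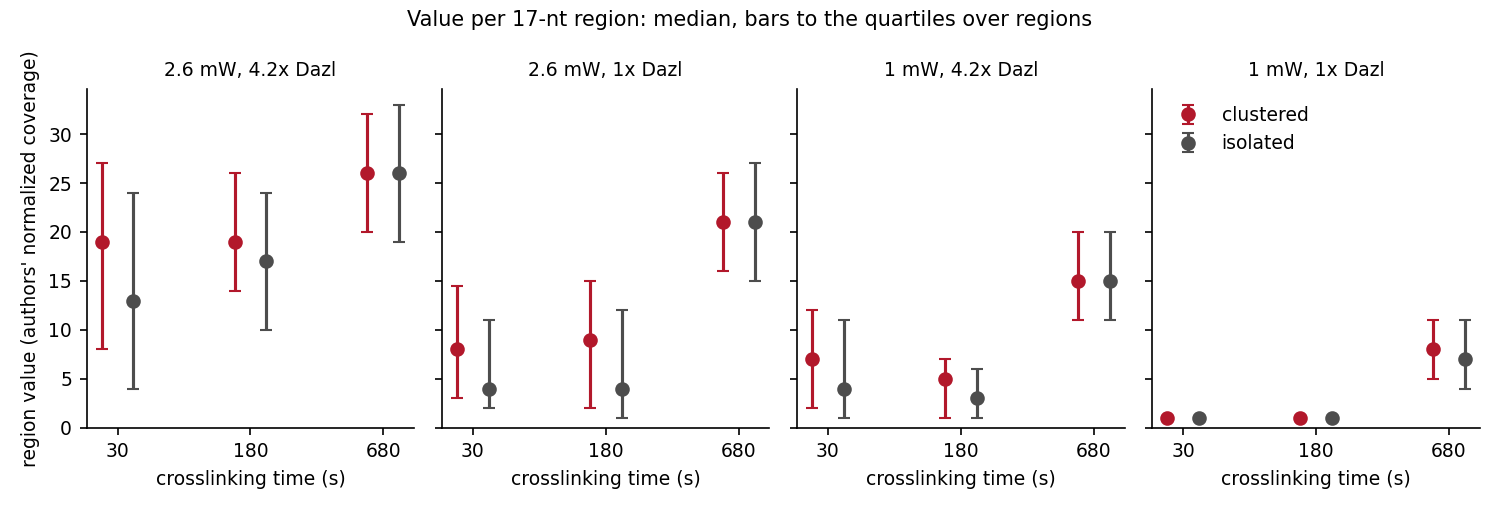
Median value per 17-nt region (linear axis, from 0) at 30, 180 and 680 s in clustered (red) and isolated (grey) regions, with bars to the quartiles over regions, in 4 panels of laser power and Dazl level with 1 library per point. The medians coincide at 680 s in the 3 stronger series and part at 30 s, where they are 19 and 13 at 2.6 mW and 4.2x Dazl.

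Over the 12 libraries the clustered median was 0.26 ± 0.29 higher on the scale of log2(value + 3) (SD, n = 12 libraries of different conditions). It was higher in 7 libraries, lower in 0 and equal in 5, with p = 0.0156 in an exact two-sided sign-flip test over libraries. The difference averaged 0.41 at 30 s, 0.33 at 180 s and 0.034 at 680 s. Clustered regions are nearer to gene ends and were less often at the lowest value listed at 680 s, 2.6 mW and 4.2x Dazl, 3.56% against 8.97%. Without the regions at that value the difference was 0.15 (exact p = 0.0391), and with a pseudocount of 10 in place of 3 it was 0.15 (exact p = 0.0156). Among regions within 1000 nt of a gene end the difference was 0.26, with p = 0.00391 in the exact test. Within the 131 genes that hold both classes it was 0.072, higher in 5 libraries and lower in 2, with an exact p = 0.0625, so the call was lost there.

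The earlier rise against isolated regions was also seen region by region. Among regions with at least 10 at 680 s, clustered regions had at 30 s a median of 100% of their own 680 s value at 2.6 mW and 4.2x Dazl, against 63.6% in isolated regions. With 1x Dazl at that power the shares were 41.2% against 27.3%, and at 1 mW and 4.2x Dazl 50.0% against 36.4%. Over all regions they were 84.1%, 37.5% and 46.7% in the same order. In each of these series the clustered share was closer to that of all regions than the isolated share was. At 1 mW and 1x Dazl the shares were 9.09% in clustered, 8.33% in isolated and 10% in all regions, where most values at 30 s were 1. A region is called full at 30 s where its value equals that of 680 s. At 2.6 mW and 4.2x Dazl this held for 907 of 1663 clustered regions (54.5%) and 664 of 1660 isolated ones (40.0%), against 45.4% of all regions. In the other 3 series at most 2.74% of clustered and 2.96% of isolated regions were full. By 180 s, the median shares at 2.6 mW and 4.2x Dazl were 82.8% and 74.2%, below those of 30 s in clustered regions. Values of that series thus tie between libraries, and every p-value here takes the libraries as independent, which they may not be.

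**Figure D3:**
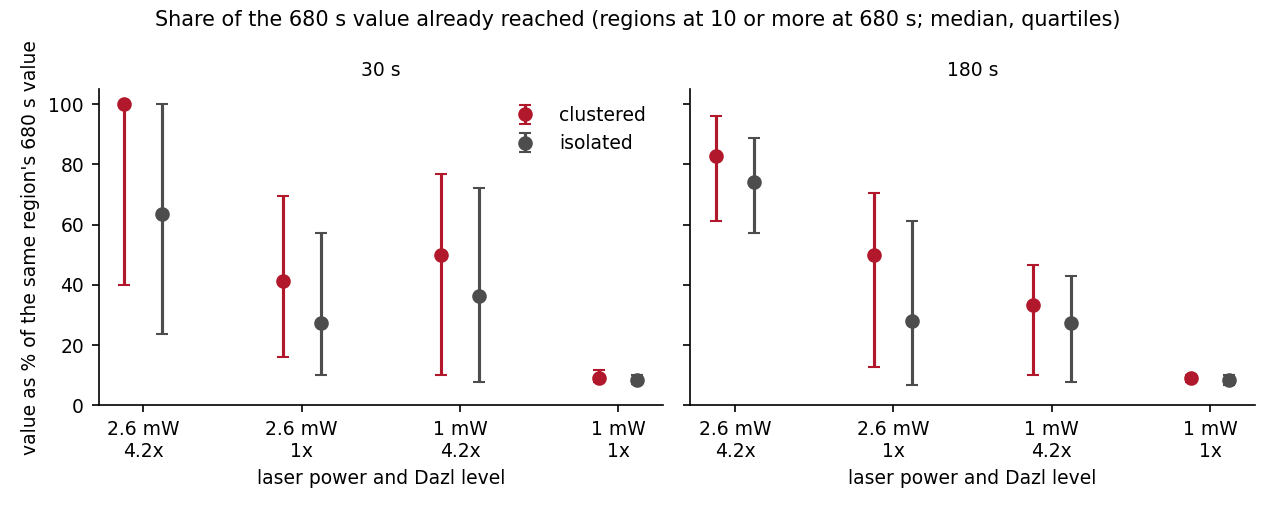
Value at 30 s (left) and 180 s (right) as percent of the same region's 680 s value, for regions with at least 10 at 680 s, in clustered (red) and isolated (grey) regions by laser power and Dazl level. Points are medians and bars the quartiles over regions, with 1 library per condition, and the clustered medians lie above the isolated ones, by most at 2.6 mW and 4.2x Dazl with 100% and 63.6% at 30 s.

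As changes between matched libraries, the differences were less firm. From 30 to 680 s the median region rose less in clusters, by 0.76 against 0.94 log2 units over the 4 series, a difference of -0.18 ± 0.20 (SD, n = 4 series). It was lower in 3 series and equal in 1, with an exact p = 0.25, where 4 series cannot reach 0.05, and it was -0.091 when the library of 30 s or of 680 s at 2.6 mW, 4.2x was left out. With 2.6 against 1 mW, clustered regions rose by 1.16 and isolated ones by 0.89, a difference of 0.27 ± 0.26 (SD, n = 6 matched pairs of libraries). It was positive in 6 of 6 pairs, with p = 0.0312 in the exact test, the smallest that 6 pairs allow, and was 0.16 with a pseudocount of 10 (exact p = 0.0312). Within genes that hold both classes it fell to 0.085, positive in 3 and negative in 3 pairs, with an exact p = 0.438. With 4.2x against 1x Dazl the rises were 0.74 and 0.58, a difference of 0.16 ± 0.22 (SD, n = 6), positive in 4 and negative in 1, with an exact p = 0.12. It was 0.083 without either 30 s library of 1 mW (exact p = 0.25), 0.084 without regions at the lowest value (exact p = 0.312), and 0.019 within genes that hold both classes (exact p = 0.562). These differences were smaller at 680 s. There the power difference was 0.032 at 4.2x Dazl and 0.10 at 1x, against 0.20 and 0.51 at 30 s.

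Tested region by region, members behaved much like all regions. In a limma fit on log2(value + 3), additive in time, power and Dazl level and adjusted by Benjamini-Hochberg over all 8338 regions, 1005 members (57.7%) were higher at 680 than at 30 s, with 61.5% of all regions called. Of the isolated regions 1263 (67.0%) were called. At 2.6 mW 1635 members (93.8%) were higher than at 1 mW, against 91.5% of all regions, and 1299 members (74.5%) were higher at 4.2x Dazl, against 74.6% of all regions. No member was called lower in these 3 tests of limma. At an adjusted p under 0.05 the members' shares for power and Dazl are thus close to the background. On the fitted scale the median member was 1.78-fold higher at 680 s, 2.25-fold at 2.6 mW and 1.71-fold at 4.2x Dazl. These are folds of value + 3, which are smaller than folds of the values themselves, most so at low values. These calls rest on spread pooled over all regions, since limma's prior degrees of freedom were infinite.

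Centring each library on its median region removed 1.09 log2 units from the median change with time, 1.24 from that with power and 0.88 from that with Dazl. Relative to the median region, 215 members (12.3%) rose more from 30 to 680 s and 283 (16.2%) less, against 12.9% and 19.4% of all regions. For power 82 members (4.71%) rose more and 250 (14.3%) less, against 4.01% and 21.5% of all regions. For Dazl level 51 (2.93%) rose more and 161 (9.24%) less, against 2.93% and 15.7%.

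Neighbours in a cluster had like values at 680 s. Among the clustered regions were 768 neighbour pairs, in which members followed each other with 11 to 50 nt between them (median 29 nt). They took in 1410 members, 126 of them in 2 pairs, and 731 pairs lay in a single gene. For comparison, 144 pairs of isolated regions followed each other in the same gene, at a median distance of 8301 nt. At 680 s, 2.6 mW and 4.2x Dazl the higher value of a neighbour pair was a median of 1.08 times the lower one, against 1.28 times in isolated pairs. Of the neighbour pairs 656 (85.4%) agreed within 1.25-fold and 132 (17.2%) were exactly equal, against 69 (47.9%) and 8 (5.56%) of isolated pairs. Spearman's rho between the members of a pair was 0.84, against 0.15 for isolated pairs. These are descriptions, since pairs share a library and, within a gene, the amount of the RNA.

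At 30 s that likeness was much weaker, though at 2.6 mW it was still above that of isolated pairs. In the same series the median ratio within a neighbour pair was 1.75 at 30 s, 1.28 at 180 s and 1.08 at 680 s, and rho was 0.24, 0.46 and 0.84. At 2.6 mW and 1x Dazl the ratios were 2.5, 2.23 and 1.19, with rho of 0.17, 0.16 and 0.73. At 1 mW and 4.2x Dazl they were 2.14, 2.0 and 1.25, with rho of 0.13, 0.14 and 0.63. At 1 mW and 1x Dazl rho was 0.090, 0.13 and 0.38, with most values of 30 and 180 s at 1. Isolated pairs at 2.6 mW and 4.2x Dazl had median ratios of 2.38 at 30 s and 1.58 at 180 s, with rho of 0.026 and 0.14. Their rho at 30 s was 0.0049 at 2.6 mW and 1x Dazl, 0.11 at 1 mW and 4.2x, and 0.22 at 1 mW and 1x. In 746 neighbour pairs both members had at least 10 at 680 s, 2.6 mW and 4.2x Dazl. Of these, 230 (30.8%) had both members full at 30 s in that series, 165 (22.1%) had neither, and 351 (47.1%) had only 1 full. In 70 pairs (9.38%) 1 member was full and the other stood at 3 or less.

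**Figure D4:**
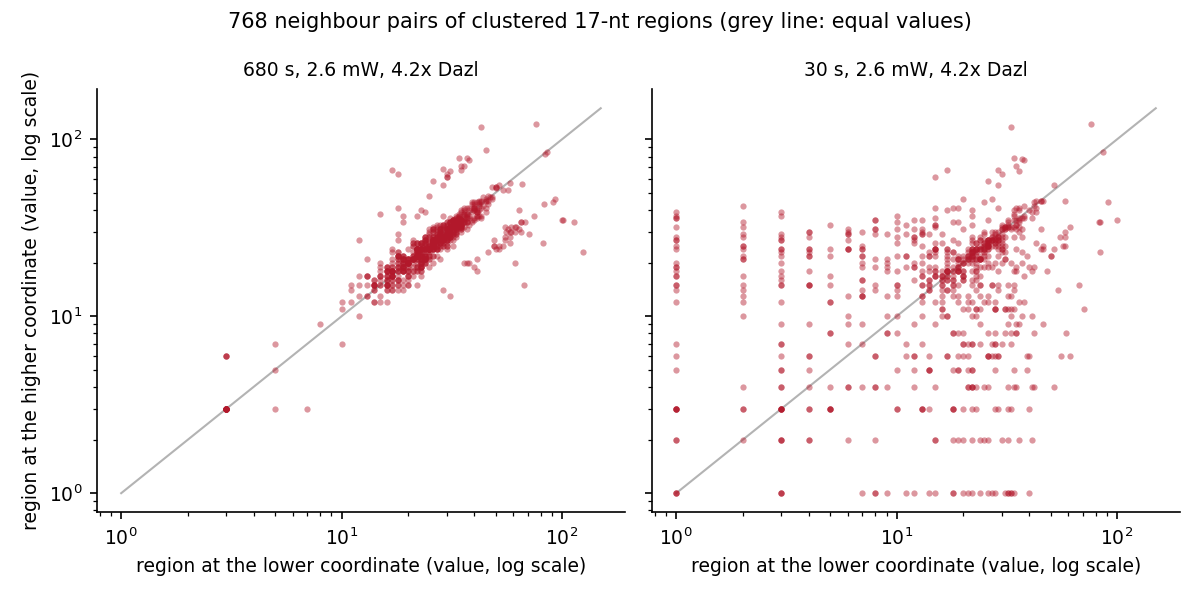
Values of the 2 members of each of the 768 neighbour pairs (both axes logarithmic) at 680 s (left) and 30 s (right), 2.6 mW, 4.2x Dazl, with a grey line where both are equal. At 680 s most points lie along the line (rho 0.84), and at 30 s they spread over the whole field, with many members at 1 to 10 beside a neighbour above 10 (rho 0.24).

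Changes with time were only weakly correlated between neighbours. Across the 768 pairs, rho between the members' changes from 30 to 680 s was 0.054 at 2.6 mW and 4.2x Dazl, 0.098 at 2.6 mW and 1x, and 0.11 at 1 mW and 4.2x. With a region called early where its 30 s value reached 50% of its 680 s value, and with only pairs whose members both had at least 10 at 680 s (746, 729 and 634 neighbour pairs), both members were early or both late in 59.1%, 52.7% and 54.9% of pairs in these series. The share of early members alone would give 58.4%, 51.1% and 50.0% for members paired without regard to each other. Isolated pairs (136, 130 and 119) gave 45.6%, 60.8% and 52.1%, against 50.4%, 60.3% and 51.1%. In size, changes differed less between neighbours than within isolated pairs. In the pair fit described below, the median absolute difference in the change from 30 to 680 s was 0.51 log2 units in neighbours and 0.78 in isolated pairs. It was 2-fold or more on that scale in 175 neighbour pairs (22.8%) and 51 isolated pairs (35.4%).

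Likeness did not stop at the edge of a cluster. At 680 s, 2.6 mW and 4.2x Dazl, consecutive 17-nt regions of a gene had a rho of 0.82 with 11 to 20 nt between them, 0.84 with 21 to 50, 0.88 with 51 to 100 and 0.86 with 101 to 200. It was 0.66 at 201 to 300 nt, 0.50 at 301 to 500 and 0.44 at 501 to 1000, and for isolated regions of next genes it was -0.003. In that library regions at 51 to 200 nt were no less alike than the members of the clusters. In the other 3 libraries of 680 s rho at 101 to 200 nt was lower than in neighbour pairs, with 0.70 against 0.73 at 2.6 mW and 1x Dazl, 0.56 against 0.63 at 1 mW and 4.2x, and 0.31 against 0.38 at 1 mW and 1x. At 51 to 100 nt rho was 0.76, 0.59 and 0.40 in the same order. That was higher than in neighbour pairs at 1x Dazl and lower at 4.2x. At 30 s, 2.6 mW and 4.2x Dazl rho was 0.37 at 11 to 20 nt, 0.22 at 21 to 50 nt, 0.28 at 51 to 100 nt and 0.21 at 101 to 200 nt.

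**Figure D5:**
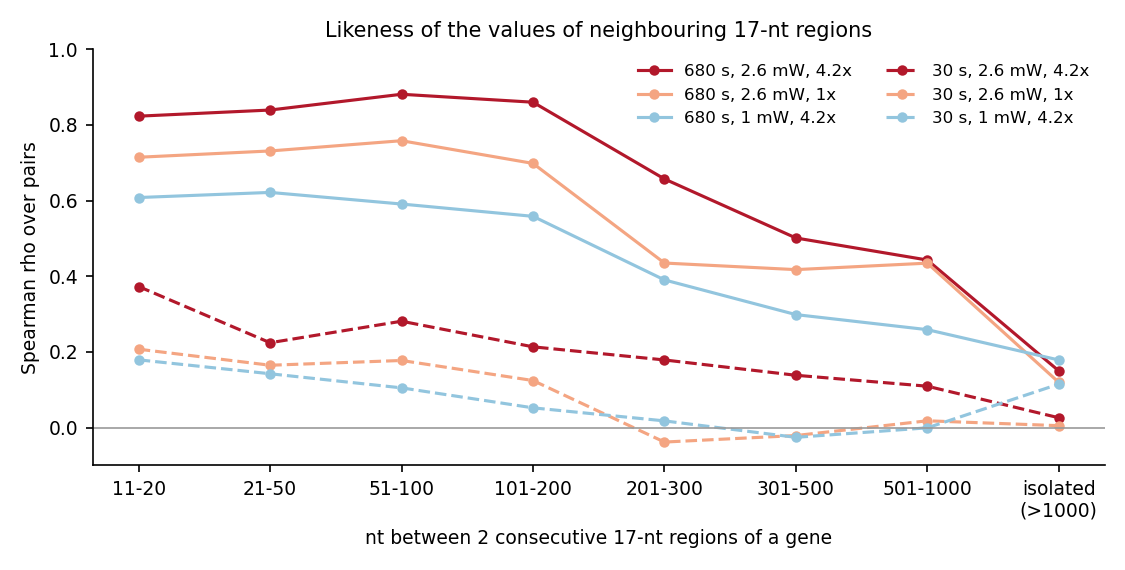
Spearman's rho between the values of 2 consecutive 17-nt regions of a gene, by the nt between them, at 680 s (solid) and 30 s (dashed) in 3 combinations of laser power and Dazl level; each point is 1 library. The solid line of 2.6 mW and 4.2x Dazl stays between 0.82 and 0.88 to 200 nt and falls to 0.15 in isolated pairs, and the dashed lines stay at 0.37 or below.

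Whole clusters followed the pairs. In the 121 clusters with at least 3 members, the highest member was a median of 1.15 times the lowest at 680 s, 2.6 mW and 4.2x Dazl, 1.64 times at 180 s and 3.14 times at 30 s. In 84 of them (69.4%) all members lay within 1.25-fold at 680 s, against 19 (15.7%) at 30 s. With 1x Dazl at that power the ratio was 4.0 at 30 s, 4.71 at 180 s and 1.38 at 680 s.

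The pairs with the highest values show both kinds of neighbour. The pair with the closest values among them lay in Chmp1a, a subunit of the membrane-cutting ESCRT-III complex (chr8:123204351-123204367 and chr8:123204394-123204410), with 26 nt between its members. At 2.6 mW and 4.2x Dazl the members had 86, 77 and 86 at 30, 180 and 680 s, and 85, 81 and 85. At 1 mW and 1x Dazl they had 2, 1 and 38, and 1, 1 and 32. The pair in Asb11, an adaptor of ubiquitin ligases (chrX:164458673-164458689 and chrX:164458717-164458733), was alike at 680 s, with 84 and 83 at 2.6 mW and 4.2x Dazl, though not at 1 mW and 1x, with 34 and 9. At 30 s, 2.6 mW and 4.2x Dazl it had 84 and 34, and at 1 mW, 4.2x Dazl and 30 s 56 and 2. In Timp2 the members were 12 nt apart and had 76 and 122 at both 680 s and 30 s. In Serpinh1 they had 91 and 44 at both times.

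A mean difference over the 12 libraries passed the test in 294 of 768 neighbour pairs (38.3%) and in 79 of 144 isolated pairs (54.9%), against 40.9% of all 912 pairs. The test was a limma fit of the within-pair difference on log2(value + 3), additive in time, power and Dazl level, with Benjamini-Hochberg adjustment over the 912 pairs. Over all pairs the median absolute difference was 0.31 in neighbours and 0.44 in isolated pairs on that scale, and 50 neighbour pairs (6.51%) differed 2-fold or more. The largest was in Scd2, where the region at the higher coordinate (chr19:44306753-44306769) exceeded the one 29 nt before it by 1.95 ± 0.19 log2 units (SE, adjusted p = 5.48e-05, limma), higher in 12 of 12 libraries. They had 118 and 43 at 680 s, 2.6 mW and 4.2x Dazl. In Stag1 the middle of 3 consecutive members was higher than both neighbours in 12 of 12 libraries, with a difference of 1.63 ± 0.13 from the lower coordinate to the middle and of -1.80 ± 0.14 from the middle to the higher coordinate (SE, adjusted p = 1.3e-05 for each, limma). In Fn1, the matrix glycoprotein fibronectin, the members had 124 and 23 at 680 s, 2.6 mW and 4.2x Dazl (difference -1.76 ± 0.12, SE, adjusted p = 8.76e-06, limma). In Canx, a lectin chaperone of the endoplasmic reticulum, they had 114 and 34 (-1.59 ± 0.14, SE, adjusted p = 3.6e-05, limma).

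Differences in time course passed the test in 56 of 768 neighbour pairs (7.29%) and 21 of 144 isolated pairs (14.6%), against 8.44% of all pairs. These are fewer than for level, but the estimates were less precise, with a median SE of 0.36 against 0.15 in neighbour pairs. The median absolute difference there was larger for time course than for level, 0.51 against 0.31. The count for time course rests on single libraries. Without any 1 of the libraries of 30 or 680 s, other than those of 1 mW and 1x Dazl, 2 neighbour pairs were left, and 145 without the 30 s, 1 mW, 1x library. Leaving out the 680 s library of that series gave 93. Leaving out a 180 s library gave 63 (2.6 mW, 4.2x), 88 (2.6 mW, 1x), 28 (1 mW, 4.2x) or 51 (1 mW, 1x). The 6 called pairs with the largest differences join a member that had most of its 680 s value at 30 s to one that stood at 1 to 3 until 180 s. In Slc38a2, an amino acid transporter (chr15:96688005-96688021 and chr15:96688042-96688058), the first member had 34, 38 and 48 at 30, 180 and 680 s (2.6 mW, 4.2x), and the second 1, 1 and 54. At 1 mW and 4.2x Dazl the first had 51, 27 and 36, and the second 1, 1 and 30. The rise of the second exceeded that of the first by 2.62 ± 0.52 log2 units (SE, adjusted p = 0.0232, limma).

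The other 5 showed the same layout. In Myl12a, a regulatory light chain of myosin, 12 nt separated a member with 1, 1 and 43 from one with 36 at all 3 times (2.6 mW, 4.2x). In Ripk2, a kinase of innate immune signalling, members had 26, 25 and 26, and 2, 2 and 31. In Mms19, a factor of iron-sulfur protein assembly, they had 1, 1 and 43, and 37, 36 and 37. In Fyttd1, an mRNA export adaptor, they had 29, 28 and 29, and 3, 3 and 37. A pair in the overlap of Syn3 and Timp3, which cannot be given to either gene, had 41 at all 3 times and 2, 2 and 44. At 2.6 mW and 4.2x Dazl the member that was lower at 30 s was the higher one at 680 s in all 6 of these pairs, which were picked for their difference in time course. In other series this did not always hold: at 1 mW and 4.2x Dazl the late member had 30 against 36 in Slc38a2, and 19 against 30 in the overlap of Syn3 and Timp3.

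Differences in the response to power or to Dazl passed the test in 0 neighbour pairs and 0 isolated pairs, so 0% of all pairs for power and 0% for Dazl. At an unadjusted p under 0.05 in limma there were 154 (20.05%) and 145 (18.88%) neighbour pairs. Isolated pairs had a higher share, with 34 (23.61%) for power and 31 (21.53%) for Dazl. Without moderation limma also called 0. Leaving out the 680 s, 2.6 mW, 4.2x library gave 13 neighbour pairs for power and 1 for Dazl, leaving out 680 s, 1 mW, 4.2x gave 5 for power, and leaving out 680 s, 2.6 mW, 1x gave 5 for Dazl. The pairs most alike over all 12 libraries, among those with at least 10 at 680 s, 2.6 mW and 4.2x Dazl, included late and early ones. In Styxl1, a phosphatase relative without activity, both members stood at 1 in all libraries of 30 and 180 s, and had 19 and 21 at 680 s, 2.6 mW and 4.2x Dazl. The members in Pdia6, a disulfide isomerase, were late as well, with 26 and 31. In Ubr7, a ubiquitin ligase, both were full at 30 s with 40 and 40, and so were those in Lmo4, a LIM-domain cofactor of transcription, with 18 and 18, in Selenoi, an enzyme of phospholipid synthesis, with 13 and 13, and in Chmp1a.

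Gene groups were compared by the share of their regions that lay in clusters, with no test. Over all genes with a region, 21.1% of regions in a gene were members. In cytoskeleton and extracellular matrix genes 73 of 292 regions were members (25%), in 19 of the 35 genes with a region. RNA-binding protein genes had 51 of 175 (29.1%), endoplasmic reticulum chaperones 25 of 87 (28.7%), mRNA decay factors 11 of 33, and cell cycle regulators 8 of 28. Ribosomal proteins and translation factors had 14 of 70, nuclear noncoding RNAs 20 of 109 and stress genes 2 of 21. The test of 680 against 30 s called 48 of the 73 matrix and cytoskeleton members, 37 of the 51 in RNA-binding protein genes, 18 of the 25 in chaperone genes, 15 of the 20 in noncoding RNAs and 12 of the 14 in translation genes. All of these were higher at 680 s, as 61.5% of all regions were. In the same order of lists, 67, 44, 24, 17 and 14 members were higher at 2.6 mW, where 91.5% of all regions were, and 64, 40, 19, 14 and 8 at 4.2x Dazl, where 74.6% of all regions were.

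Single genes of these groups differed in when their members filled. Summed over members at 30, 180 and 680 s (2.6 mW, 4.2x), Hnrnpu, a nuclear RNA-binding protein, had 114, 147 and 250 in 6 members, so that 45.6% of the 680 s sum was there at 30 s. G3bp1, a stress granule protein, had 83, 85 and 158 in 6, or 52.5%. Rps3, a protein of the small ribosomal subunit, had 50, 77 and 134 in 4, or 37.3%, and Hsp90b1, an endoplasmic reticulum chaperone, had 65, 114 and 194 in 4, or 33.5%. At the other end, Eif1a had 57, 47 and 57 in 2 members, or 100%. Snhg1 had 40, 33 and 40 in its 1 member, also 100%. Cdc42, a small GTPase, had 114, 96 and 115 in 2 members, or 99.1%. The fibrillar collagen gene Col1a1 had 185, 183 and 218 in 6, or 84.9%. In between, Eif5a, a translation factor, had 79, 92 and 120 in 4, or 65.8%. Tnrc6b, which links microRNA complexes to deadenylation, had 64, 76 and 104 in 5, or 61.5%. Over all clustered regions the sums in that series were 33710, 35651 and 47428 at the 3 times. With 1 library per condition, none of these shares has a replicate error.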

How the data were processed

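Dazl coverage was measured in 12 libraries, 1 per condition. The authors deposited 1 score per interval, which they call normalized coverage, in whole numbers from 1 to 24 per position, with no header and no strand. The build was mm10 and the tools named are Bowtie2 and FastQC, per the submitters' processing notes. For counting, normalization and choice of sites, the sources used here give no method, so depth is unknown and no counting interval can be had.

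Listed intervals were joined across libraries where 10 nt or less lay between them, and a region's value is its width times the score, summed. Regions were placed in genes by the RefSeq spans of GRCm38.p6, and sequences are RefSeq's of that build. Regions and pairs were fitted with limma 3.58.1 (R 4.3.3) on log2(value + 3), the pseudocount being the largest of the 12 library minima, with 7 residual degrees of freedom and a threshold of 0.05 after Benjamini-Hochberg adjustment. Regions had infinite prior degrees of freedom and pairs 4.3. Tables were made with Python 3.11.15, pandas 2.3.3 and SciPy 1.17.1, and the fits were tested on simulated data. Differences between clustered and isolated regions were tested by exact sign flips over libraries or matched pairs of libraries, which are not replicates of a condition.

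The members and lists were chosen with earlier results of these data known. Named are the 8 clusters with the most regions, the 10 genes with the most members, the 6 neighbour pairs with the highest values, the 6 called pairs with the largest difference in level and in time course, the 6 pairs most alike, and up to 3 genes per list. Alternatives were other pseudocounts, scaling, distances, joining gaps, a filter on low values, plain eBayes, and leaving out each library; 2 more, genes that hold both classes and regions near gene ends, were added after seeing the data.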

Additional observations from a re-analysis of the deposited data

How the results depend on the processing

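Counts of members called moved with the number of members and with the scaling. With clusters at a distance of 30 nt, 567, 944 and 752 members were called for time, power and Dazl level, and at 100 nt 1867, 2951 and 2355, which were 57.0% and 59.2% of the members for time, 95.0% and 93.7% for power and 75.7% and 74.7% for Dazl. Centring libraries on their median left 215, 82 and 51 called higher. Leaving out 1 library gave 757 to 1337, 1521 to 1639 and 1026 to 1363, so 43.4% to 76.7%, 87.3% to 94.0% and 58.9% to 78.2% of members, and 46.7% to 76.9%, 83.9% to 92.1% and 59.2% to 74.9% of all regions. Neighbour pairs called for level were 165 at 30 nt, 568 at 100 nt and 194 with intervals joined at 20 nt. These were 40.05%, 35.97% and 40.25% of neighbour pairs, against 44.06%, 37.49% and 43.61% of all pairs. With 1 library left out they were 211 to 334, or 27.47% to 43.49%, against 29.71% to 45.94% of all pairs. Those called for time course were 28 with a pseudocount of 1, 88 with 10 and 126 at 100 nt. The shares were 3.646%, 11.46% and 7.98%, against 4.276%, 13.16% and 8.532% of all pairs. With 1 library left out they were 2 to 145, or 0.2604% to 18.88%, against 0.5482% to 21.27% of all pairs. For power and Dazl 0 to 13 and 0 to 5 neighbour pairs were called with 1 library left out. These were at most 1.693% and 0.651% of neighbour pairs, with at most 1.864% and 0.5482% of all pairs called. Within genes that hold both classes the level difference was 0.072 (exact p = 0.0625) and the power difference 0.085 (exact p = 0.438); the cause was not tested. With 1 library left out the power difference was 0.19 to 0.31, where the exact test on 5 pairs of libraries cannot go below p = 0.0625. The Dazl difference was 0.11 with a pseudocount of 10 (exact p = 0.0312). The time difference stayed negative in all 12 alternatives that leave out a library and all 10 others, between -0.26 and -0.091, with p of 0.25 to 0.5 in the exact tests. No fit with a replicate block was possible because each condition has 1 library and no replicate numbers are shared; the matched libraries above are paired by condition only.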

Other observations

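The distance between neighbours was uneven. Of the 768 neighbour pairs, 35 had 13 nt between them, so that their starts were 30 nt apart, while each other gap from 11 to 50 nt was found in 12 to 27 pairs (median 18).

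In the Usp14 cluster 1 region, chosen after its values were seen, had 5 at 4.2x Dazl, 1 mW and 30 s, where the other 5 had 1 to 15. At 1x Dazl, with the same power and time, it had 10, and the other 5 had 1 to 3.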
